A study of Mus musculus with 12 samples.

Results

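Tfcp2l1 and Tbx3 encode transcription factors of the naive pluripotency network of mouse embryonic stem cells, and the regions at both genes that ESRRB chromatin immunoprecipitation and sequencing (ChIP-seq) recovered were described here. A region was taken when its nearest RefSeq protein-coding gene was Tfcp2l1 or Tbx3 and its centre lay inside that gene or within 100 kb of its span. This rule gave 54 of the 86201 regions of the deposited count table, 19 at Tfcp2l1 and 35 at Tbx3. The libraries came from embryonic stem cells kept in serum with LIF and given no treatment. Both groups are labelled as Nanog knockouts that carry Esrrb. The groups are NanogKO:Esrrb ("without Nanog") and NanogKO:Esrrb:Nanog ("with Nanog"), each with 3 ESRRB ChIP libraries, lettered A to C, and the same cell line name, N{delta}:cE:iN, is given to all 12 samples of the series. The labels do not say how Esrrb or Nanog was expressed, whether a group is a single clone, or which fixation a library had. They also do not say whether libraries came from separate cultures, and the spread behind each p-value, that among 3 libraries, may therefore be technical.

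ESRRB is an orphan nuclear receptor that binds DNA at an extended half-site and keeps embryonic stem cells in self-renewal. TFCP2L1 is a factor of the CP2 and grainyhead family that acts downstream of LIF and STAT3, and TBX3 is a T-box factor that takes up LIF and PI3K signals. Both can sustain self-renewal when supplied in excess, and ESRRB, KLF4 and NANOG belong to the same network. The comparison asks whether ESRRB signal at these genes differs with Nanog. The counts measure ESRRB on chromatin, not RNA, so they check neither the Nanog labels nor the cell type. A larger share of cells bound at a region and more binding per cell cannot be told apart.

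Counts in regions summed to between 2734338 and 5193707 per library without Nanog and between 6689166 and 8382646 with Nanog, so the libraries without Nanog carry the larger counting error. The scaling sets each region against the rest of the table, so a shift shared by the whole table is not measured. Of all 84892 regions tested, 19.2% were called at an adjusted p under 0.05, 9.42% higher and 9.78% lower with Nanog. Signal is given as CPM, a region's count scaled to the library's total in regions and its TMM factor, with the SD over 3 libraries, and log2 fold changes are with minus without Nanog, ± SE of the edgeR fit.

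At most regions of both genes, the difference with Nanog did not pass the test. The test could be run on 52 members, of which it called 4 higher and 2 lower and left 46 uncalled (edgeR quasi-likelihood test, Benjamini-Hochberg adjusted over all regions). The share called lies below the background of 19.2%. The median log2 fold change was 0.18 over these 52 regions and -0.01 over all regions, and the range ran from -0.80 to 0.93. None of the 52 reached a 2-fold ratio of mean CPM in either direction, whereas 3830 regions of the whole table did so upwards and 1826 downwards. All libraries with Nanog lay above all libraries without in 11 regions, against 17% of all regions, and below them in 4, against 16.8%, so that 33.8% of all regions were free of overlap in 1 direction or the other. The other 2 members, of 25 bp and 6 bp, had too few counts to be tested.

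Tfcp2l1 lies on chromosome 1 at 118627923 to 118685168 (mm10), and its RefSeq promoter entry is on the plus strand. Its 19 regions held 11 inside the gene, 3 upstream and 5 beyond its end, and the farthest lay 72.0 kb away. A region of 646 bp at 118627346 to 118627991 covers the transcription start. Its part before 118627695 lies outside the promoter entry and is not shown. The 228 bases of it just before the annotated gene start are printed here. They come from RefSeq (GRCm38.p6, chr1:118627695-118627922, plus strand). The capitals mark TATAAA, the only match to the motifs searched.
Tfcp2l1 promoter: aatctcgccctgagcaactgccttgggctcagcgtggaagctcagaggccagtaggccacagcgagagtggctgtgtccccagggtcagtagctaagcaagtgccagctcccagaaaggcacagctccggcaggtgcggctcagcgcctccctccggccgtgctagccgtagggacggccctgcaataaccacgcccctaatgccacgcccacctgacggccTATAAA

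The motifs were searched on both strands in the 300 bases of the promoter entry, which runs to 118627994. TCAAGGTCA, the extended half-site of estrogen-related receptors, was not found there, and neither was AAGGTCA or AGGTCA, which it contains. These letters stand in 0.423%, 4.72% and 16.3% of the 32851 promoters of the same length in the table. TATAAA, looked for after the sequence was seen, begins 28 bases before the transcription start and stands in 13.6% of promoters. The GC content of the entry was 65.3%, against a median of 52.7% over all promoters. The promoter table used here has no entry for Tbx3, whose sequence is not shown.

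Signal at the promoter of Tfcp2l1 lay near the median of the gene's tested regions, 12.2 CPM, and did not separate the groups. The libraries A, B and C held 15.7, 11.5 and 12.2 CPM without Nanog and 12.7, 13.3 and 15.5 CPM with Nanog, and the groups overlapped. This is a log2 fold change of 0.10 ± 0.20 (edgeR, Benjamini-Hochberg adjusted p = 0.767). Per kb of region the promoter held 20.9 CPM, against 70.5 and 70.9 CPM per kb in the pair of strongest regions, which lie inside the gene.

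The strongest region of Tfcp2l1, at 118642231 to 118643816 and 15.1 kb from the start coordinate, gave nearly the same signal in both groups. It held 107, 123 and 105 CPM without Nanog and 109, 115 and 111 CPM with Nanog, above 99.7% of all tested regions. On the log2 scale the groups differed by 0.00 ± 0.10 (edgeR, adjusted p = 0.997). The next lies at 118647476 to 118648818, and its mean was 102 ± 7.21 CPM without and 87.8 ± 2.6 CPM with Nanog, a log2 fold change of -0.22 ± 0.10 (edgeR, adjusted p = 0.137). There all 3 libraries with Nanog lay below all 3 without, and the difference was not called. A region just after the start, at 118628134 to 118629600, held 54.4 ± 4.92 and 56.1 ± 1.89 CPM.

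The region upstream of the Tfcp2l1 start rose with Nanog. It lies at 118625358 to 118626999 on chromosome 1, with its centre 1.75 kb before the gene, and its counts were 106, 170 and 192 without and 441, 758 and 530 with Nanog. These are 39.5, 47.7 and 37.7 CPM in A, B and C without Nanog and 64.3, 89.4 and 67.5 CPM with Nanog. The groups did not overlap, and library B was the highest of each. Means were 41.6 ± 5.33 CPM without and 73.7 ± 13.6 CPM with Nanog, and the log2 fold change of 0.83 ± 0.14 was called (edgeR, adjusted p = 5.56e-05). The region's share of all Tfcp2l1 signal was 8.83% to 10.1% in the libraries without Nanog and 14.1% to 17.6% in those with Nanog. Without Nanog, 2 peaks of the deposited list fell into this region, and with Nanog 1.

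A region beyond the end of Tfcp2l1 fell with Nanog. At 118748191 to 118748640, 63.2 kb past the gene, the libraries A, B and C held 21.3, 15.1 and 24.5 CPM without Nanog and 12.4, 12.4 and 15.7 CPM with Nanog. The groups overlapped, since library C with Nanog lay above library B without. Its log2 fold change was -0.60 ± 0.19 (edgeR, adjusted p = 0.0251). The call was lost with DESeq2, after thinning to equal totals and on leaving out library A or C without Nanog or A or B with Nanog, and the value was -0.40 without library C of the group without Nanog. The largest increase at the gene, in a weak region 44.7 kb past its end, was 0.93 ± 0.37 and was not called. That region overlaps a peak in the group with Nanog alone. It is in the table through that group, and its counts are no support for a rise. It held 1.57 ± 0.635 and 2.87 ± 0.377 CPM (edgeR, adjusted p = 0.0737). Without library B of the group without Nanog it was 1.32 and called (edgeR, adjusted p = 0.0246), without library C of that group it was 0.60, and with a loess offset 0.57.

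**Figure D1:**
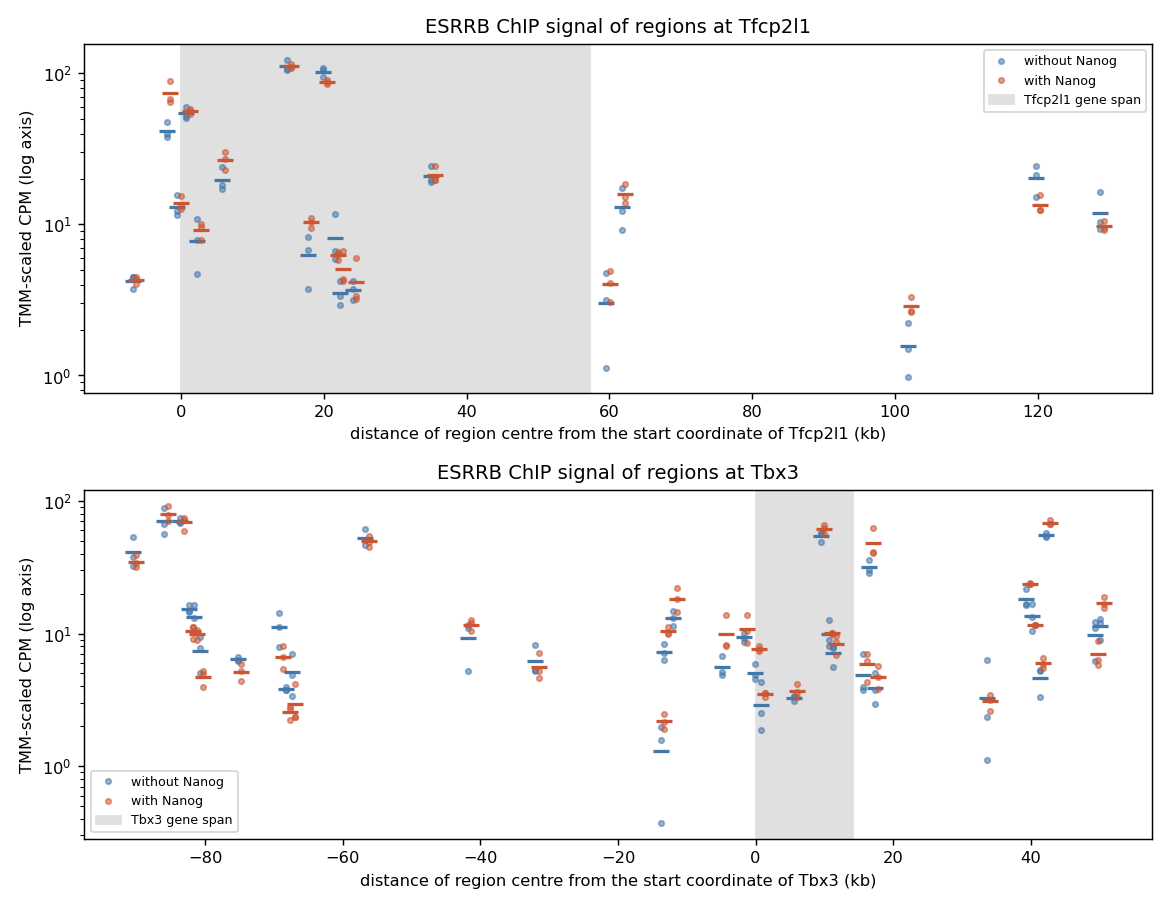
ESRRB signal of the 52 tested regions, with the distance of a region's centre from the gene's start coordinate in kb on the x axis and TMM-scaled CPM on a log y axis. Points are single libraries, short lines are means of 3, and grey marks the gene, and the strongest region of Tfcp2l1 is at about 112 CPM in both groups, whereas the upstream region goes from 41.6 to 73.7 CPM.

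Summed over its 19 regions, Tfcp2l1 did not differ with Nanog beyond the test's threshold. The sums were 445, 475 and 428 CPM without Nanog and 458, 509 and 468 CPM with Nanog, which overlap. The mean was 449 ± 23.8 CPM without and 478 ± 26.9 CPM with Nanog. The log2 fold change of the sum was 0.09 ± 0.06 (edgeR on sums per gene, adjusted p = 0.288). Of the 16002 genes in this test, 24.4% were called. Without library B with Nanog the value was 0.05, and without library B of the group without Nanog it was 0.15 and called (edgeR, adjusted p = 0.0415). The parts of the locus gave different values. Regions inside the gene summed to 339 ± 21.6 CPM without and 339 ± 11.3 CPM with Nanog, while the 3 upstream regions summed to 59.0 ± 4.67 CPM without and 91.9 ± 13.2 CPM with Nanog. Only 1 of those 3 was called, the one described above. Per kb of region, Tfcp2l1 held 38.3 CPM without and 40.8 CPM with Nanog.

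Tbx3 lies on chromosome 5 at 119670534 to 119684724 (mm10), with the noncoding genes Tbx3os1 and Tbx3os2 on its low-coordinate and high-coordinate sides. The strand of Tbx3 is not given in the tables used here, so sides are named by coordinate. Of its 35 regions, 18 lay on the low side, 6 inside the gene and 11 on the high side, and 9 had their centre inside Tbx3os1 and 3 inside Tbx3os2. The farthest lay 90.3 kb away with 41.2 ± 11.3 CPM without and 34.9 ± 4.0 CPM with Nanog. The nearest region outside the limit lay at 107 kb and held 7.67 ± 3.3 and 7.65 ± 0.925 CPM, and 8 regions assigned to Tbx3 were left out in this way.

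Signal at Tbx3 was spread over more regions than at Tfcp2l1. The strongest region held 11.9% ± 2.11 of the gene's summed signal without Nanog and 12.5% ± 0.581 with Nanog, against 24.9% ± 0.858 and 23.5% ± 0.619 at Tfcp2l1. That region lies 85.7 kb from the gene on the low side, at 119584199 to 119585434. Its libraries A, B and C held 56.3, 87.8 and 66.5 CPM without Nanog and 70.4, 91.5 and 77.7 CPM with Nanog, and the groups overlapped. Its log2 fold change was 0.18 ± 0.13 (edgeR, adjusted p = 0.359). Without library B of the group without Nanog it was 0.38 and was called (edgeR, adjusted p = 0.0138), while it was 0.07 without library A of that group or library B with Nanog. Its neighbour at 119586439 to 119587844 had means of 70.7 ± 3.49 and 68.9 ± 7.97 CPM.

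Most regions close to Tbx3 had fold changes above 0, and most of those far from it on the low side had fold changes below 0. Of the 23 tested regions within 50 kb, 20 had a log2 fold change above 0, with a median of 0.29, and 3 were called higher, where 9.42% of all regions were. Of the 11 regions more than 50 kb away, all on the low side, 10 had a log2 fold change below 0, with a median of -0.40, and 1 was called lower, a share near the 9.78% of all regions. Peak lists differ along the locus, since 17 of the 24 near regions overlap a peak with Nanog alone and 7 of the 11 far ones overlap a peak in both groups. Regions with a peak with Nanog alone are in the table through the group where they were high, and their counts are no support for a rise. Over all regions their median was 0.11, and that of regions in both lists -0.19. At Tbx3 the medians of near regions were 0.30 in both lists and 0.27 with Nanog alone, and those of far regions -0.23 and -0.62. Values above 0 were found in 5 of the 7 near regions in both lists and 15 of the 16 tested with Nanog alone. Over all regions tested, 41480 of 84892 lay above 0. Of those in both lists 10828 of 32615 did, and of those with Nanog alone 30651 of 51603. The division into near and far regions was described after the values were seen, and the 50 kb limit was among the distances listed beforehand as alternatives.

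Of the regions within 50 kb of Tbx3, those in both lists summed higher with Nanog, but that sum was not tested. The tested sum also includes regions with a peak with Nanog alone. The sum of the far regions did not separate the groups. Within 50 kb, the libraries A, B and C held 281, 302 and 290 CPM without Nanog and 341, 392 and 347 CPM with Nanog. The groups did not overlap. The 7 of these regions in both lists held 196, 193 and 199 CPM without and 226, 257 and 234 CPM with Nanog, which do not overlap either. Their sum was not tested apart. The 16 tested regions with a peak with Nanog alone held 95.1 ± 12.8 CPM without and 121 ± 12.4 CPM with Nanog. They are part of the tested sum, and their counts are no support for a rise. The test of the whole sum therefore cannot decide whether signal near Tbx3 rose. The log2 fold change of the whole sum was 0.30 ± 0.065 (edgeR on sums per gene, adjusted p = 0.00158), a test in which 24.3% of genes were called and 9.9% called higher. It ranged from 0.24 without library B with Nanog to 0.35 without library A with Nanog, with adjusted p from 2.96e-05 to 0.0219 over the libraries left out. Beyond 50 kb, the sums were 292, 323 and 277 CPM without and 244, 302 and 281 CPM with Nanog, which overlap; their difference from the near regions was not tested. Over all 35 regions the sum was 589 ± 31.5 CPM without and 636 ± 55.1 CPM with Nanog. That log2 fold change was 0.11 ± 0.06 and not called (edgeR, adjusted p = 0.206), against 0.36 within 20 kb (edgeR, adjusted p = 0.00123), where 23.6% of genes were called. The sum within 20 kb also includes regions with a peak with Nanog alone, so its test cannot decide this either. Over all 35 regions the value was 0.04 without library B with Nanog, 0.17 without library A with Nanog, and 0.17 and called without library B of the group without Nanog (edgeR, adjusted p = 0.0179).

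**Figure D2:**
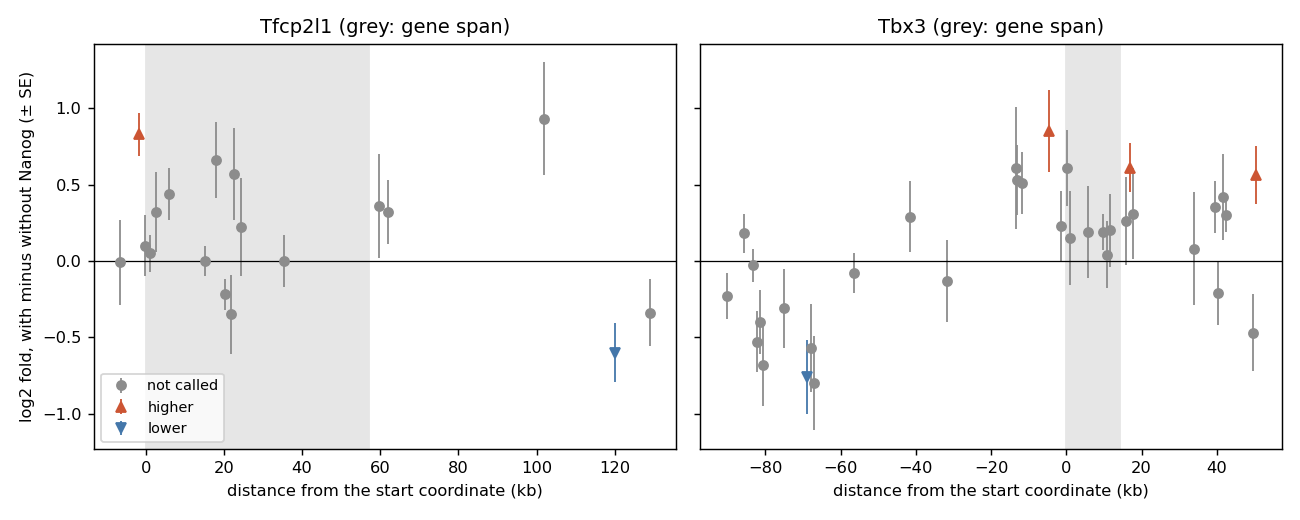
Log2 fold change, with minus without Nanog, ± SE, of each tested region against the distance of its centre from the gene's start coordinate in kb, with called regions as triangles. At Tbx3 the regions more than 50 kb away on the low side have a median of -0.40 and those within 50 kb a median of 0.29.

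The rise at Tbx3 with the smallest p was just past its high-coordinate end. The region at 119686802 to 119687810, 2.58 kb beyond the gene and inside Tbx3os2, held 28.7, 35.6 and 30.4 CPM in A, B and C without Nanog and 40.2, 62.3 and 41.5 CPM with Nanog. The groups did not overlap, and library B with Nanog stood above the other two. This gave a log2 fold change of 0.61 ± 0.16 (edgeR, adjusted p = 0.00596), and without library B with Nanog it was 0.37 and not called (edgeR, adjusted p = 0.125).

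A higher call also lay 4.58 kb from the low-coordinate end, at 119665728 to 119666171, inside Tbx3os1. This region has a peak with Nanog alone, so its counts and its call are no support for a rise. Its values were 4.85, 6.73 and 5.1 CPM without and 8.02, 13.7 and 8.15 CPM with Nanog, again with library B highest. A log2 fold change of 0.85 ± 0.27 was called (edgeR, adjusted p = 0.0234). It was 0.54 and not called without library B with Nanog (edgeR, adjusted p = 0.23), and the call was also lost with DESeq2, after thinning and without library A or C of the group without Nanog. The third higher call lay 36.2 kb past the gene, at 119720561 to 119721278, in a region that also has a peak with Nanog alone. Its call is likewise no support for a rise. There the values were 8.95, 12.1 and 12.9 CPM without and 15.5, 18.8 and 16.8 CPM with Nanog, a log2 fold change of 0.56 ± 0.19 (edgeR, adjusted p = 0.0415). This call was lost with DESeq2, after thinning, where the value was 0.37, with TMM on the lower part of the signal and without any library other than B or C of the group without Nanog.

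The called fall at Tbx3 lay 69.0 kb away on the low side, at 119601295 to 119601702. The libraries A, B and C held 11.2, 7.85 and 14.3 CPM without Nanog and 5.39, 6.6 and 8.03 CPM with Nanog. The groups overlapped, since library C with Nanog lay above library B without, as at the fall beyond Tfcp2l1. The log2 fold change was -0.76 ± 0.24 (edgeR, adjusted p = 0.0259), and -0.47 without library C of the group without Nanog (edgeR, adjusted p = 0.289). The call was also lost with DESeq2, after thinning and without library A of the group without Nanog or A or B with Nanog. A weaker neighbour at 119603230 to 119603433 had the largest decrease of the gene, -0.80 ± 0.31, and was not called (edgeR, adjusted p = 0.0709). It was called without library A of the group without Nanog, at -0.95 (edgeR, adjusted p = 0.0458), and without library C with Nanog, at -1.13 (edgeR, adjusted p = 0.0339). Without library B of the group without Nanog it was -0.53.

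**Figure D3:**
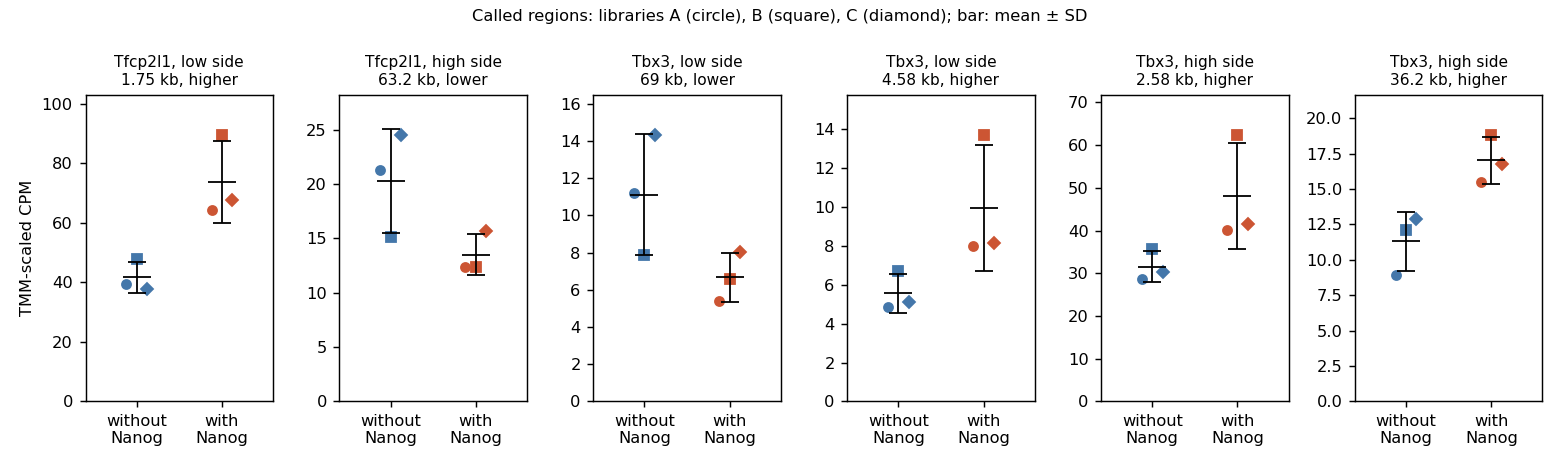
TMM-scaled CPM of the 6 called regions in each library, on linear y axes from 0, with the mean ± SD of 3 libraries per group. The 4 regions called higher have all libraries with Nanog above all without, and in the 2 called lower the groups overlap. Of the 4 called higher, 2 at Tbx3 have a peak with Nanog alone, and their counts are no support for a rise.

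Regions at the ends of Tbx3 itself gave little signal. The region at its start coordinate, 119670605 to 119670933, held 4.85, 5.89 and 4.51 CPM without and 7.44, 8.02 and 7.64 CPM with Nanog, which do not overlap. This region has a peak with Nanog alone, so its counts are no support for a rise. Its log2 fold change of 0.61 ± 0.25 was not called (edgeR, adjusted p = 0.0891). The region nearest the other end, at 119686226 to 119686601, held 4.89 ± 1.84 and 5.86 ± 1.38 CPM. Strong signal inside the gene came from 119679577 to 119680925, with 54.0 ± 4.55 CPM without and 61.7 ± 4.99 CPM with Nanog (log2 fold change 0.19 ± 0.12; edgeR, adjusted p = 0.281). On the high side, 28.3 kb past the gene, the region at 119712508 to 119713573 held 55.4 ± 1.98 and 68.5 ± 2.78 CPM. Its groups did not overlap, and its log2 fold change of 0.30 ± 0.11 lay just outside the threshold (edgeR, adjusted p = 0.0577).

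**Figure D4:**
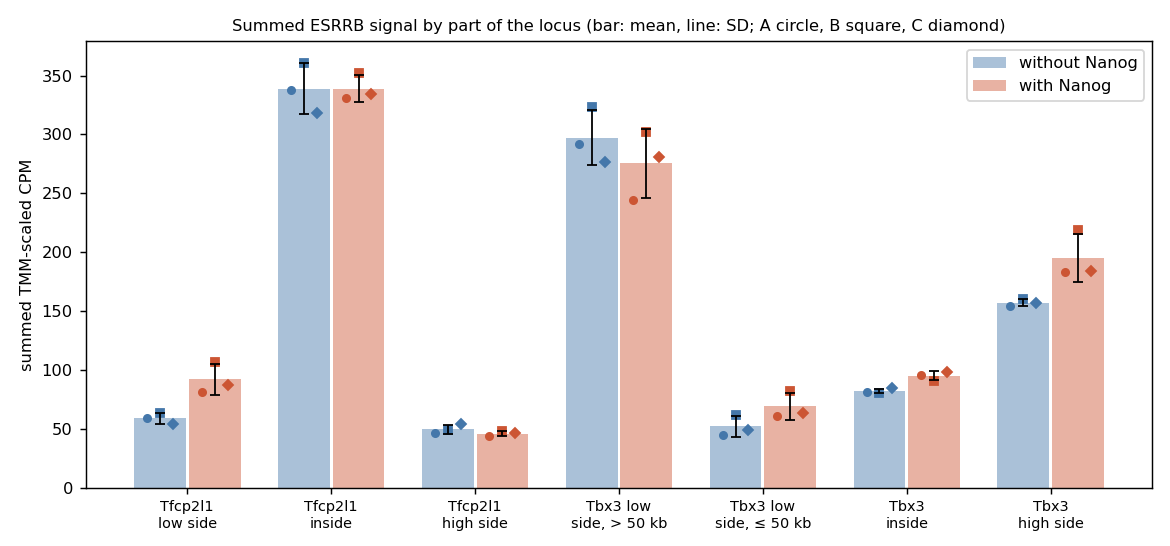
Summed TMM-scaled CPM of the tested regions in each part of the loci, with bars for means, lines for SD over 3 libraries and points for libraries. The sums inside Tfcp2l1 are 339 CPM in both groups, whereas those on the high side of Tbx3 go from 157 to 196 CPM. The sums on the high side of Tbx3 include regions with a peak with Nanog alone.

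All 54 regions overlapped the deposited peak list of the group with Nanog, and 25 also overlapped that of the group without, 11 at Tfcp2l1 and 14 at Tbx3. There is 1 list per group, so list membership carries no replicate error, and the lists come from the same libraries as the counts. Of the 29 regions in the list with Nanog alone, 27 were tested, and 2 of these, both at Tbx3, were called higher, against 12.7% called in either direction over all such regions. Their median log2 fold change was 0.36 at Tfcp2l1 and 0.22 at Tbx3, against 0.11 over all such regions. Regions in both lists had medians of 0.00 and -0.06, against -0.19 over all such regions, and 2 of them were called higher and 2 lower, against 28.2% called over all such regions.

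The genes were compared with each other by the ratio of their counts within a library, which needs no scaling. The log2 ratio of Tbx3 to Tfcp2l1 was 0.37, 0.40 and 0.41 in A, B and C without Nanog and 0.35, 0.45 and 0.42 with Nanog. The means differed by 0.018 (exact permutation test, two-sided, p = 0.6), in a design whose smallest possible p is 0.1. With the regions within 50 kb or 20 kb alone the difference was 0.18 and 0.23, each at that smallest p of the exact permutation test. Both limits take in Tbx3 regions with a peak with Nanog alone, so neither difference is support for a rise at Tbx3. Over the 6 libraries, the summed signal of Tfcp2l1 was most like that of Wdr1, Hspb8, Scn3a and Gcnt2, with Pearson's r of 0.975, 0.970, 0.970 and 0.965 on log-CPM among 1970 genes with at least 10 regions. That of Tbx3 was most like Scn3a, Hspb8, Kcnf1 and Tfcp2l1, with r of 0.982, 0.979, 0.963 and 0.962. These values describe 6 points that share libraries and scaling. Library B was the highest of its group in 31 of the 52 member regions with Nanog and in 30 without, or 59.6% and 57.7%, against 34.9% and 35.6% of all regions tested. Its part in the likeness of these genes was not tested.

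At 16 further genes of the pluripotency network, Pou5f1, Sox2 and Sall4 among them, 47 of 238 regions were higher and 19 lower. The share called was 27.7% against 19.2% over all regions, with a median log2 fold change of 0.22. Summed per gene, 5 of these 16 genes were called higher, where 9.93% of all 16002 genes were. Among the 5 were Klf4, a Kruppel-like factor, with 0.62 ± 0.07, and Esrrb itself with 0.34 ± 0.07 (edgeR on sums, adjusted p = 1.26e-06 and 0.000659). Tfcp2l1 and Tbx3, at 0.09 and 0.11, lay near the median of 0.12 of those genes. That these sums differ from those of Klf4 or Esrrb was not tested. At 16 genes of LIF, STAT3 and PI3K signalling 25 of 184 regions were higher and 8 lower, a share called of 17.9%, with a median of 0.10. Klf4, Stat3 and Gbx2 are in both lists, and 7 of those 25 higher calls were at Klf4. Lifr and Il6st, which encode the subunits of the LIF receptor, had sums at -0.05 and 0.02, and neither was called.

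Relatives and neighbours did not share 1 direction. At 14 T-box genes, 9 of 94 regions were higher and 14 lower, a share called of 24.5%, with a median of -0.04. Eomes, a T-box factor of mesendoderm and trophoblast, held 3 of the higher and 10 of the lower calls in 26 regions. At 5 genes of the CP2 and grainyhead family, 2 of 40 were higher and 3 lower, or 12.5%. At 8 genes around both loci, 17 of 110 were higher and 10 lower, or 24.5%. Of these, Gli2, a factor of hedgehog signalling, held 8 higher and 1 lower call among 26 regions. Inhbb held 6 higher and 1 lower call in 13 regions, and Nifk held 2 lower calls in 2 regions. Tbx5, the T-box gene next to Tbx3, held 1 lower call in 5 regions, and its sum of -0.26 ± 0.15 was not called.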

How the data were processed

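ESRRB ChIP-seq reads of 6 libraries were counted per region by the authors, who deposited raw counts for 86201 regions. Per the submitters' processing notes, reads were handled on mm10 with Bowtie2, MACS2, deepTools, bedtools 2.26.0, SAMtools 1.4.1 and bcl2fastq 2.19.1. Which peak threshold and read counter were used, and what was done with duplicates, is not stated in the labels. Input samples are in no column of the table and were not analysed here, so background was not subtracted. Columns were matched to groups by the line in their names, and their letters are not the replicate numbers of the titles. Libraries of a group were not duplicates (chi-square per degree of freedom 1.34 to 2.53).

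Regions were assigned to the RefSeq genes of GRCm38.p6, the assembly of mm10, by the distance of the centre to the gene's span. Coordinates are 1-based. After filterByExpr, 84892 regions were tested with edgeR 4.0.16 (glmQLFTest, TMM; R 4.3.3), and p-values were adjusted by Benjamini-Hochberg over all of them with a threshold of 0.05. Counts summed per gene were tested likewise over 16002 genes with the TMM factors of the regions. The exact test used SciPy 1.17.1. Alternatives were other scalings, DESeq2 1.42.0, voom of limma 3.58.1, other filters, thinning, other distances, a block by letter and leaving out each library. The tests were tested on simulated data.

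Regions were named by a rule: the strongest by mean log-CPM, those nearest the start or the ends of the gene, the called ones, and the largest change in each direction. Some other regions and genes in the text were chosen after their values were seen. The members, the rule and the gene lists were chosen with earlier results of these data known.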

Additional observations from a re-analysis of the deposited data

How the results depend on the processing

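The rise upstream of Tfcp2l1 kept its direction and its call in all 16 alternatives run on it, with log2 fold changes from 0.67 to 0.95. The adjusted p was 4.1e-14 with a block by column letter (edgeR), a pairing that no label gives. In the other alternatives it ran from 9.12e-08 to 0.00215 (edgeR, DESeq2 or limma-voom). The summed signal of Tbx3 within 50 kb did so in the 10 alternatives run on it, which were not planned beforehand. None of these 10 left out the regions with a peak with Nanog alone, so they do not show how the sum depends on those regions. They are no support for a rise near Tbx3 either. The counts of called regions were small and moved. Higher calls at Tfcp2l1, 1 in the test as reported, numbered 3 by column totals, 2 with a loess offset, limma-voom, a mean count of at least 50 or thinning, and 1 to 4 with a library left out. Lower calls there, 1 as reported, numbered 0 with DESeq2, thinning, or a distance of 50 or 20 kb, and 0 to 1 with a library left out. At Tbx3, higher calls went from 3 to 5 by column totals, to 1 with DESeq2 and to 0 to 5 with a library left out, the 0 without library B with Nanog. Lower calls there went from 1 to 0 with DESeq2 or the shorter distances, to 2 with limma-voom or TMM on the lower part of the signal, and to 0 to 3 with a library left out.

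With the column letter as a replicate block, 3 regions were higher and 2 lower at Tfcp2l1, and 5 were higher and 2 lower at Tbx3. No label says that a letter pairs libraries, and the correlations of same-letter deviations were 0.0827, 0.223 and 0.128, against -0.159 to 0.0448 for other letters, so each letter correlated best with itself as a hint from the data alone.

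The sum at Tfcp2l1 ran from 0.046 to 0.146 with a library left out and that at Tbx3 from 0.044 to 0.172, the lowest without library B with Nanog. Both were called without library B of the group without Nanog (edgeR, adjusted p = 0.0415 and 0.0179). The sum at Tbx3 was 0.304 within 50 kb and 0.362 within 20 kb, both called, and both sums include regions with a peak with Nanog alone. Of the tested Tbx3 regions, 3 within 50 kb and 10 farther away had a log2 fold change below 0. The difference between the groups in the log2 ratio of Tbx3 to Tfcp2l1, 0.018 as reported, ran from -0.002, without library B with Nanog, to 0.045 with a library left out, and was 0.175 within 50 kb and 0.234 within 20 kb. At the strongest region of Tfcp2l1, a difference of 0.001 ran from -0.033 to 0.085 with a library left out, below 0 without library A or C of the group without Nanog (-0.014 and -0.033) or B with Nanog (-0.021), and was -0.040 with TMM on the lower part of the signal and 0.170 with a loess offset. The causes of these moves were not tested. Regions of few counts are limited by depth, most of all without Nanog.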
